A study of Rattus norvegicus with 16 samples.

Results

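The proteasome genes described here are the 44 genes, of 13222 in the expression table, whose symbol begins with Psma, Psmb, Psmc, Psmd, Psme, Psmf or Psmg followed by a digit, with the interferon-induced subunits Psmb8, Psmb9 and Psmb10 set apart. They were measured by stranded poly(A) RNA sequencing in glomeruli, the filtering tufts of the kidney, of 16 male Wistar rats of about 175 g. Healthy control rats were compared with rats given puromycin aminonucleoside (PAN), a toxin that injures podocytes and causes nephrotic syndrome, by intravenous injection. The 3 injured groups then received a daily gavage of sham vehicle (PAN group), pioglitazone, a thiazolidinedione agonist of the nuclear receptor PPARγ, or GQ-16, a partial agonist of the same receptor. Each group held 4 rats, and on day 11 glomeruli were isolated with sieves. The labels give neither the drug doses nor the age of the rats, and their protocol does not say whether the healthy rats were injected or gavaged. A replicate number below serves as a rat's name and implies no order or pairing.

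The proteasome is the protease that degrades proteins tagged with ubiquitin. Its 20S core is a barrel of α rings (Psma genes), which gate the entrance, and β rings (Psmb genes), which carry the protease sites. The 19S cap contains a ring of ATPases (Psmc genes), which unfold substrates, and non-ATPase subunits (Psmd genes), which bind and remove ubiquitin, and core and cap together form the 26S proteasome. Psmg1 to Psmg4 and Psmd5, Psmd9 and Psmd10 are assembly chaperones, Psme genes encode alternative activators of the core, and Psmf1 encodes an inhibitor. When proteasome activity is low, the transcription factor encoded by Nfe2l1 is known to raise the transcription of the subunit genes together.

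The table lists 6 of 7 α ring genes, 7 of 7 β ring genes, 6 of 6 ATPases and 11 of 11 non-ATPase subunits named Psmd, which make up the 30 standard subunits referred to below as the 26S set. It also lists 4 of 4 core chaperones, 3 of 3 cap chaperones, 3 of 4 activators and the inhibitor. Psma3 and Psme1 were not analysed here under those names, and the table carries Psma3l, a name that RefSeq gives as a synonym of rat Psma3. Psmc3ip and Psme3ip1 match the naming rule without encoding subunits. The cap subunits Adrm1 and Sem1 do not match the rule and are counted among the partners below. All 44 genes were well covered, from a lowest value of 75 reads in a library (Psmc3ip) to a highest of 4891 (Psmd2), with library totals between 13351137 and 21977663 reads.

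Promoters were available from RefSeq, build GRCr8, for 40 of the 44 genes as the 250 bases before and 50 after the annotated start. Psma7, Psmd12, Psmd14 and Psmd6 have no entry. The stretches below are the 120 bases that end just before the start, read 5′ to 3′ on the strand of the gene. The first set shows the genes for 2 of the 3 catalytic β subunits (Psmb5 and Psmb6) and for Psmb2, the standard subunit with the most positive shift relative to the rest of the complex between control and PAN. Capitals mark a match to TGACNNNGC, the core of the antioxidant-type element to which the Nfe2l1 protein is known to bind.
Psmb2: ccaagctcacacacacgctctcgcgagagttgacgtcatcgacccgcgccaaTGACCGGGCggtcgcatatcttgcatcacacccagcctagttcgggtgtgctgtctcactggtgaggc
Psmb5: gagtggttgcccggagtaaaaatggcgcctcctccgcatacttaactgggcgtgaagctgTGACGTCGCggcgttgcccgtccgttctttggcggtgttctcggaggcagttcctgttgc
Psmb6: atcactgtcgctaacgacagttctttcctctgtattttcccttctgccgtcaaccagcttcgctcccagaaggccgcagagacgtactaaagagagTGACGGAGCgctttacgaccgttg
These stretches lie at chr5:144254938-144255057 on the plus strand (Psmb2), chr15:32047380-32047499 on the minus strand (Psmb5) and chr10:55737768-55737887 on the plus strand (Psmb6). The matches begin 68, 60 and 24 bases before the start in Psmb2, Psmb5 and Psmb6, respectively. In Psmb2 the match overlaps a CCAAT and a GGGCGG. Searched on both strands, TGACNNNGC was present in 8 of the 40 proteasome promoters, or 20% (Psma3l, Psmb2, Psmb5, Psmb6, Psmd1, Psmd3, Psmd9 and Psme4). It was present in 12.1% of all 33469 rat promoters and in 14.7% of the 10717 promoters of genes in the expression table.

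The second set shows the motif whose share, among the 4 searched, exceeded that in other promoters by the largest factor. Capitals mark CCGGAAG, the form bound by ETS family factors, or its reverse complement CTTCCGG, in the gene of the remaining catalytic subunit, Psmb7, and of the ATPase Psmc1.
Psmb7: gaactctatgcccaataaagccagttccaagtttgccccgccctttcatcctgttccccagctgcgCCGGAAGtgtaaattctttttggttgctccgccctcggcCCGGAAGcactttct
Psmc1: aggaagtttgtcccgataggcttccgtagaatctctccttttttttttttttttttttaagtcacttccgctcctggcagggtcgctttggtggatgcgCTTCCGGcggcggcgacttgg
They lie at chr3:42827471-42827590 on the minus strand (Psmb7) and chr6:125122377-125122496 on the plus strand (Psmc1). Psmb7 holds 2 matches, beginning 54 and 15 bases before the start, and Psmc1 holds 1, beginning 21 bases before it. CCGGAAG was found on either strand in 16 of 40 proteasome promoters (40%), against 8.75% of all promoters and 17% of those of genes in the table. The corresponding shares for CCAAT were 52.5%, 37.5% and 37.2%, and for GGGCGG 72.5%, 33.1% and 61.3%. These are matches of letters, and whether a factor binds there was not measured.

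Gene levels are given as reads per library total scaled to a common size (CPM), and differences between groups as log2 differences of group means on the log2(CPM + 1) scale. They were tested with limma across all genes, and a gene is called changed at a Benjamini-Hochberg adjusted p under 0.05. CPM depends on what else is in a library, and the 13 mitochondrial genes in the table took very different shares of the reads. Their share was 13.7%, 39.0%, 32.1% and 18.9% in control replicates 1 to 4 and 5.83%, 9.72%, 10.6% and 10.1% in the PAN replicates. In the pioglitazone rats it was 18.99%, 15.9%, 12.5% and 8.61%, and in the GQ-16 rats 18.04%, 30.9%, 8.997% and 6.63%. Over all genes the median log2 difference, PAN minus control, was 0.28 in CPM, and it was −0.003 after median-ratio scaling, which sets the typical gene equal between libraries. The main counts and differences are therefore given on both scales. Levels of single rats, leave-one-out fits and sums of marker genes are in CPM unless another scale is named.

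After PAN the proteasome genes stood higher in CPM, across core, cap and chaperones, and so did the median gene of the table. Of 44 genes, 27 were called higher and none lower (61.4%, where 21.7% of all genes were called higher and 0.522% lower). All 44 differences were above 0, with a median of 0.41 for the proteasome genes beside 0.28 for all genes. After median-ratio scaling 2 of 44 were called, Psmg3 and Psmb2, or 4.55% (background 7.12% higher and 1.51% lower). The median of the members was then 0.11 beside −0.003 for all genes, with 35 of 44 differences above 0. On either scale 36 of 44 members lay above the median of all genes.

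**Figure D1:**
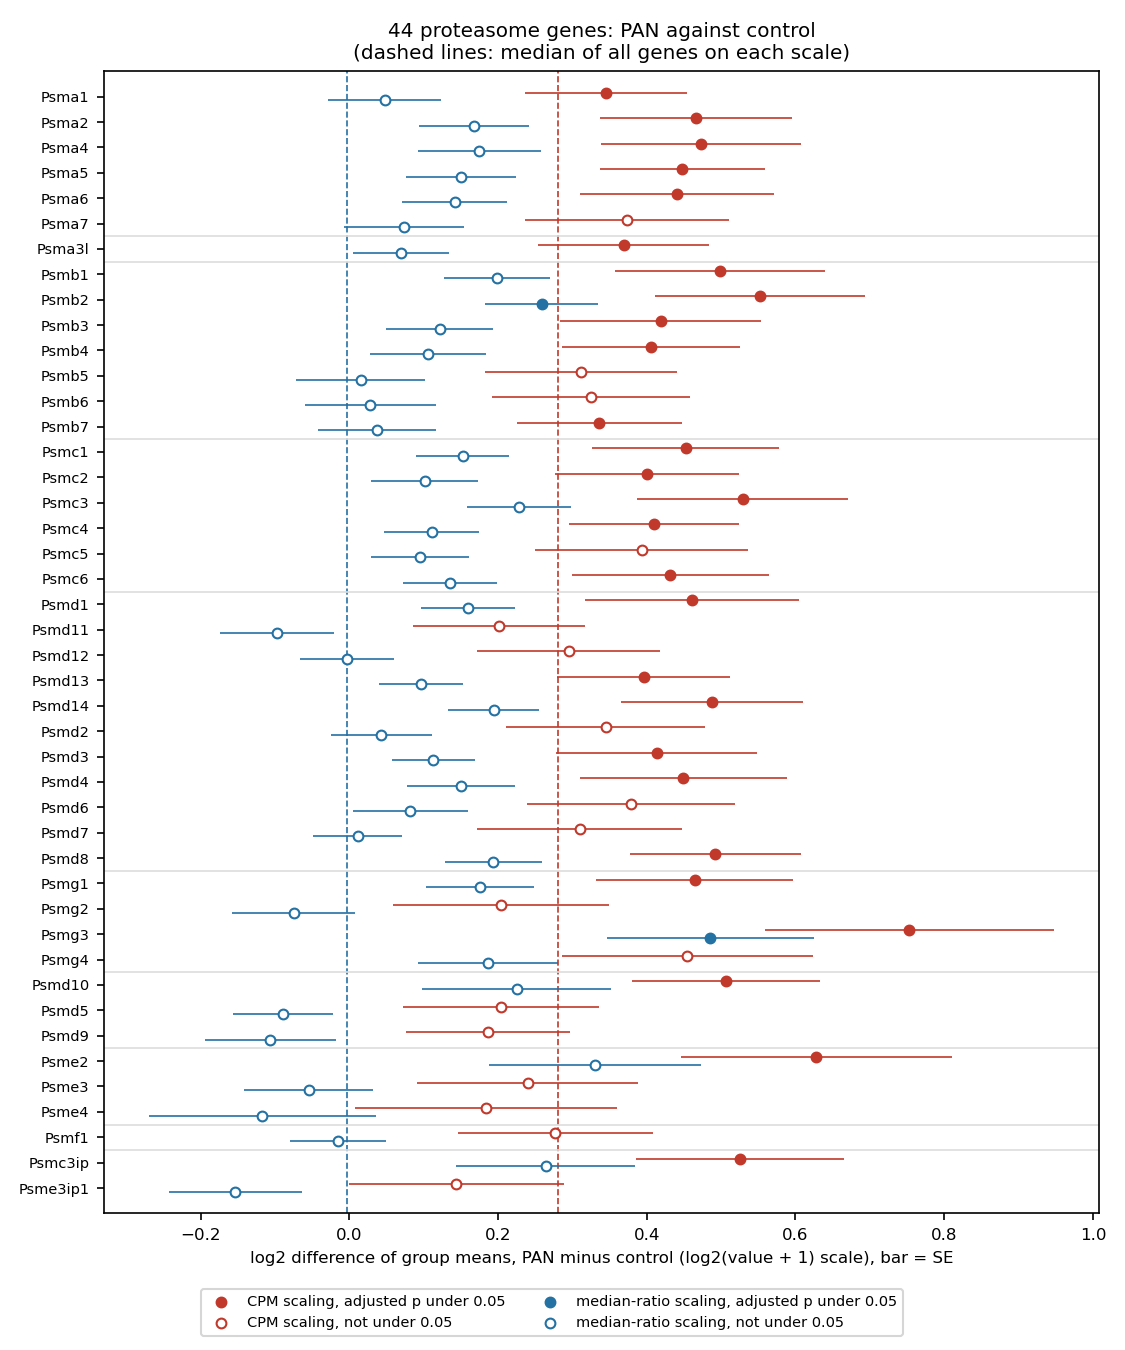
Log2 difference of group means between PAN and control (x axis, log2(value + 1) scale) for each of the 44 proteasome genes, grouped by role, on the CPM scale (red) and after median-ratio scaling (blue), n = 4 rats per group; bars are standard errors, filled points have an adjusted p under 0.05 and dashed lines mark the median of all genes. All red points lie above 0 and 27 are filled, whereas 2 blue points, Psmb2 and Psmg3, are filled.

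The count of 27 depended on single rats, as did most single calls. The share of all genes called higher moved in the same fits. The count was 2 without control replicate 2 (where 6.38% of all genes were called higher), 2 without control replicate 3 (6.21%) and 4 without PAN replicate 1 (7.77%). It was 7 without PAN replicate 2 (9.63%), 16 without PAN replicate 3 (14.4%) and 36 without control replicate 1 (36.8%). It was 0 when the 3 libraries with the highest mitochondrial share (control replicates 2 and 3 and GQ-16 replicate 2) were left out together, when the mitochondrial share was a covariate, or when libraries were scaled to totals without mitochondrial genes. In those 3 fits 0.424%, 1.64% and 6.66% of all genes were called higher, and the smallest adjusted p among the members (limma) was 0.121, 0.198 and 0.0619. The count was also 0, with a smallest adjusted p of 0.0852 and 2.88% of all genes called higher, when a title number of 25 or higher was a covariate. PAN replicates 1 to 3 and no control library carry such a number, and the labels do not say whether it marks a batch.

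The median of the 26S set in each rat shows the same dependence. On the log2(CPM + 1) scale it was 6.25, 5.70, 5.83 and 6.19 in control replicates 1 to 4 and 6.47, 6.37, 6.32 and 6.39 in the PAN replicates. No PAN rat overlapped a control rat, and the lowest control rats were the 2 with the highest mitochondrial share. The means were 5.996 ± 0.270 (SD, n = 4) in control and 6.39 ± 0.0609 in PAN. After median-ratio scaling the values were 6.22, 6.13, 6.12 and 6.20 in control and 6.26, 6.26, 6.20 and 6.32 in PAN. The ranges then overlapped, PAN replicate 3 lying just below control replicates 1 and 4. The means were 6.17 ± 0.0483 and 6.26 ± 0.0472, so the difference fell from 0.39 on the CPM scale to 0.09.

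**Figure D2:**
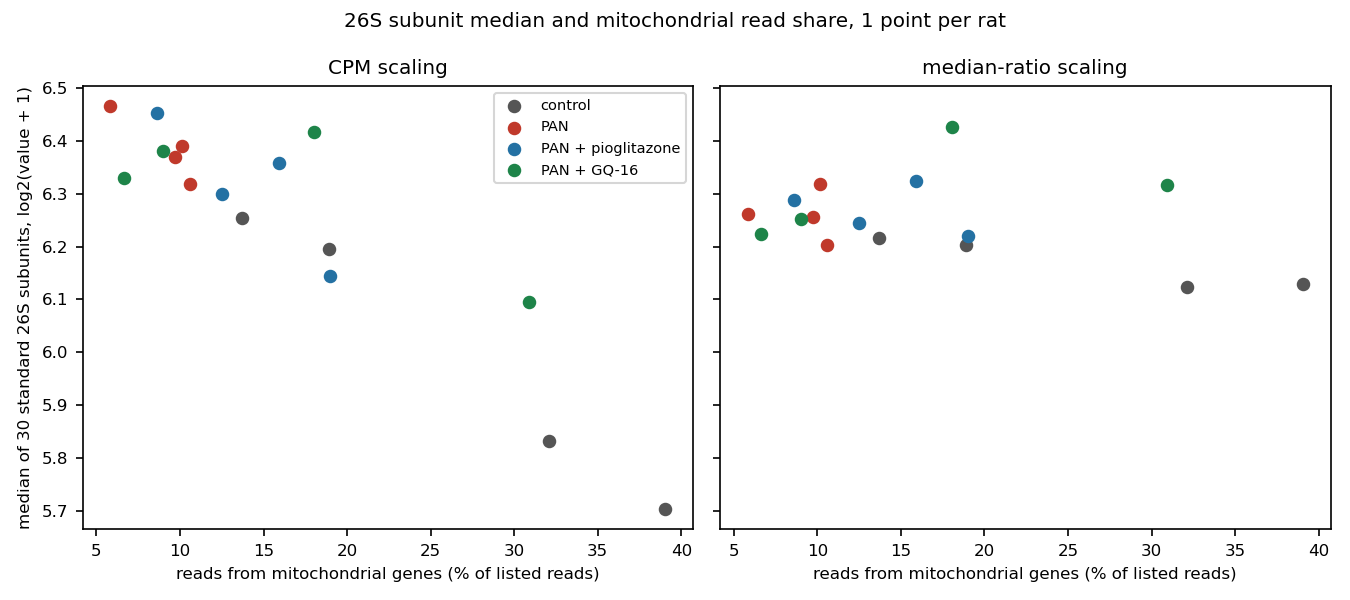
Median level of the 30 standard 26S subunits in each rat (y axis, log2(value + 1)) against the share of reads from mitochondrial genes (x axis, % of listed reads), on the CPM scale (left) and after median-ratio scaling (right), 1 point per rat. On the left the level falls from 6.47 in the PAN rat with 5.83% mitochondrial reads to 5.70 in the control rat with 39.0%; on the right all 16 rats lie between 6.12 and 6.43.

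In the core, the called genes belonged to both rings. The counts by role that follow stand beside 21.7% of all genes called higher in CPM and 7.12% after median-ratio scaling. Of the α ring, 5 of 6 genes rose in CPM (Psma1, Psma2, Psma4, Psma5 and Psma6), with a median difference over the ring of 0.44, and 0 of 6 were called after median-ratio scaling, with a median of 0.15. Psma5, an α ring subunit, stood at 47.3, 37.7, 44.1 and 47.4 CPM in the control replicates and at 70.0, 59.6, 57.0 and 55.5 CPM in the PAN replicates, without overlap. Its difference was 0.45 (SE 0.111, limma adjusted p = 0.0137), and 0.15 with adjusted p = 0.205 after median-ratio scaling. The CPM call was lost without control replicate 2 (adjusted p = 0.0522) and without PAN replicate 1 (0.0582). Psma3l was also called higher.

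Of the β ring, 5 of 7 genes rose in CPM (Psmb1, Psmb2, Psmb3, Psmb4 and Psmb7), with a ring median of 0.41. After median-ratio scaling Psmb2 was the 1 gene of 7 called, and the median was 0.11. Psmb2, a β subunit without protease activity, stood at 32.5, 21.7, 25.01 and 30.6 CPM in control and at 43.9, 41.9, 38.5 and 37.0 CPM in PAN. Every PAN rat was above every control rat, and this was also so after median-ratio scaling, with 29.3 to 31.6 in control and 35.2 to 38.7 in PAN. The difference was 0.55 (SE 0.142, limma adjusted p = 0.0161), or 1.47-fold on that scale, and 0.26 with adjusted p = 0.0491 after median-ratio scaling. Leaving out control replicate 2 (adjusted p = 0.0648), control replicate 3 (0.0615) or PAN replicate 1 (0.0564) ended the CPM call.

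The catalytic subunits were not the leading genes of the β ring. Psmb5, the chymotrypsin-like subunit and the main target of bortezomib, stood at 52.3, 34.9, 40.8 and 46.4 CPM in control and 52.1, 57.0, 51.1 and 55.0 CPM in PAN. The groups overlapped, control replicate 1 lying within the PAN range, and Psmb5 was not called. Psmb6, the caspase-like subunit, stood at 49.4, 31.7, 40.9 and 47.0 CPM in control and 54.6, 49.6, 51.9 and 53.9 CPM in PAN; the ranges did not overlap, by a margin of 49.4 against 49.6 CPM, and it was not called. Psmb7, the trypsin-like subunit, stood at 81.3, 65.5, 73.5 and 82.4 CPM in control and 101, 95.4, 89.3 and 95.8 CPM in PAN, without overlap, and rose. The CPM differences of Psmb5, Psmb6 and Psmb7 were 0.31, 0.32 and 0.34, so the call of Psmb7 does not set it apart from the other two. After median-ratio scaling the differences of these 3 genes were 0.02 (Psmb5), 0.03 (Psmb6) and 0.04 (Psmb7), and none was called.

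**Figure D3:**
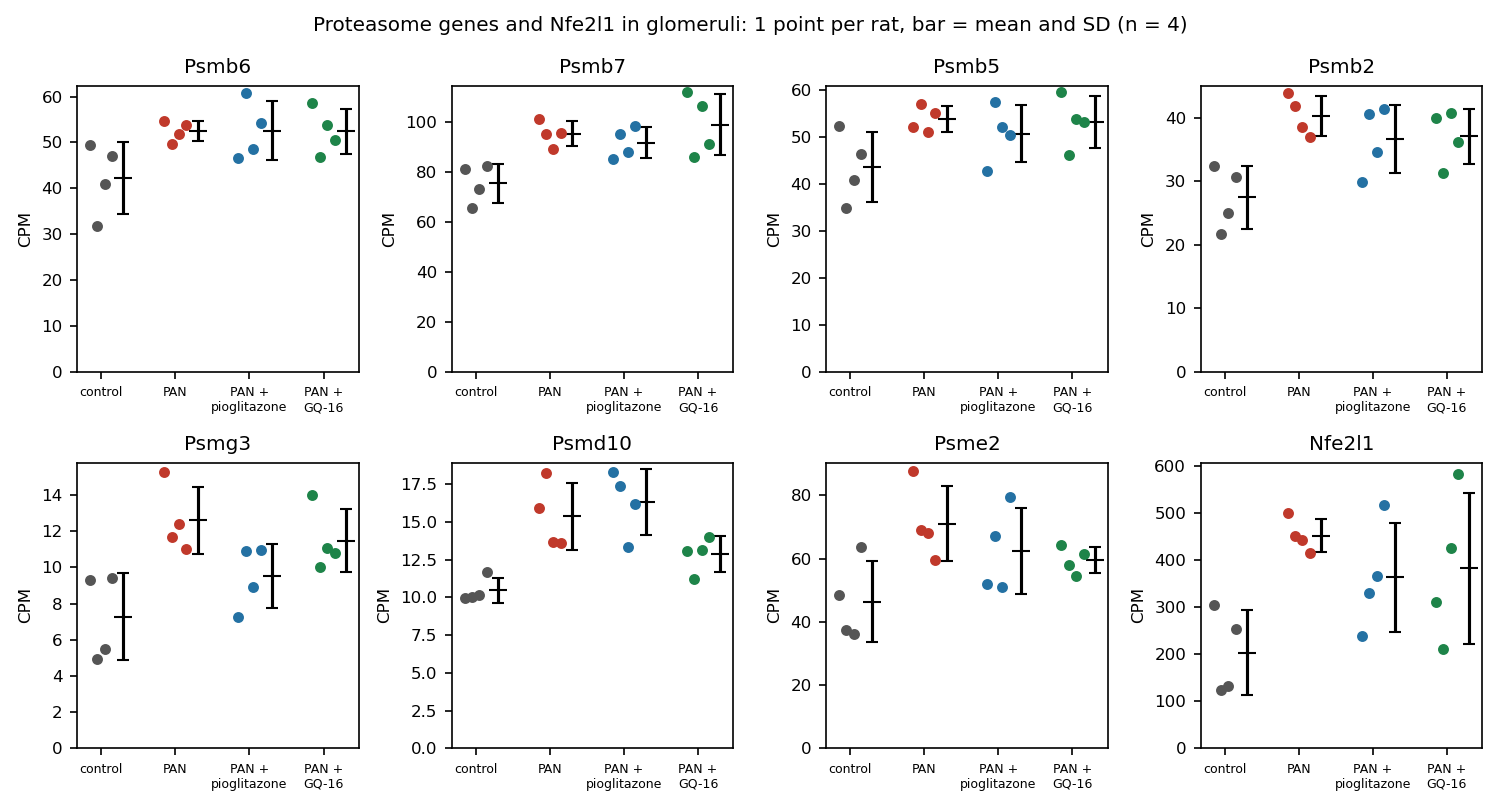
Level in each rat (y axis, CPM) of the catalytic subunits Psmb5, Psmb6 and Psmb7, of Psmb2, Psmg3, Psmd10 and Psme2, and of Nfe2l1, in the 4 groups; points are rats, and bars are the mean and SD of 4 rats. The lowest rat of each of the 8 panels is a control rat, Nfe2l1 has the widest spread among the treated rats (210 to 584 CPM with GQ-16), and the control rats of Psmd10 lie close together (9.95 to 11.7 CPM).

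In the cap, 5 of 6 ATPases rose in CPM, and all 6 differences were above 0, with a median of 0.42. The sixth, Psmc5, stood 0.39 higher and was not called, next to Psmc2, which was called at 0.40. After median-ratio scaling 0 of 6 were called and the median was 0.12. Psmc3, an ATPase of the base ring, stood at 143, 93.5, 111 and 150 CPM in control and 199, 179, 176 and 156 CPM in PAN, without overlap. Its difference was 0.53 (SE 0.142, limma adjusted p = 0.0196), and 0.23 with adjusted p = 0.0562 after median-ratio scaling. The CPM call was lost without control replicate 2 (adjusted p = 0.0734), control replicate 3 (0.0750), PAN replicate 1 (0.0720) or PAN replicate 2 (0.0516).

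Of the non-ATPase subunits, 6 of 11 rose in CPM (Psmd1, Psmd3, Psmd4, Psmd8, Psmd13 and Psmd14), with a median difference of 0.40. After median-ratio scaling 0 of 11 were called and the median was 0.10. Psmd8, a lid subunit, had the smallest p of all 44 genes. It stood at 61.5, 47.8, 49.0 and 63.3 CPM in control and 80.7, 77.4, 73.3 and 79.7 CPM in PAN, without overlap. The difference was 0.49 (SE 0.115, limma adjusted p = 0.0102). Its CPM call was kept whichever of the 8 rats was left out, with adjusted p-values up to 0.0490, and was lost in 8 of 12 other settings, with adjusted p-values up to 0.198. After median-ratio scaling the difference was 0.19 with adjusted p = 0.0792.

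Psmd14, the deubiquitinase that removes ubiquitin chains at the cap, stood at 33.6, 22.7, 27.5 and 31.3 CPM in control and 42.6, 40.5, 37.5 and 40.8 CPM in PAN, without overlap. Its difference was 0.49 (SE 0.122, limma adjusted p = 0.0144), and 0.19 with adjusted p = 0.0638 after median-ratio scaling. Without control replicate 2 (adjusted p = 0.0526) or control replicate 3 (0.0529) it was not called in CPM. Psmd4, a ubiquitin receptor of the cap, stood at 81.3, 55.0, 60.9 and 86.3 CPM in control and 103, 99.2, 93.4 and 86.9 CPM in PAN. The ranges met at 86.3 and 86.9 CPM without overlapping, and Psmd4 was called higher.

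All 7 assembly chaperones had CPM differences above 0, and 3 of them were called. Of the core chaperones, Psmg1 and Psmg3 rose in CPM, and Psmg2 and Psmg4 were not called; after median-ratio scaling Psmg3 alone of the 4 was called. Psmg3, which helps to assemble the α ring, stood at 9.32, 4.93, 5.47 and 9.40 CPM in control and 15.3, 11.7, 12.4 and 11.0 CPM in PAN, without overlap. Its difference of 0.75 (SE 0.194, limma adjusted p = 0.0167), or 1.69-fold on that scale, was the largest of the 44 genes. After median-ratio scaling it was 0.49 with adjusted p = 0.0429, with control rats at 6.66 to 9.46 and PAN rats at 10.5 to 13.2. The CPM call was lost without control replicate 2 (adjusted p = 0.0701), control replicate 3 (0.0701) or PAN replicate 1 (0.0621).

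Psmg1, the partner of Psmg2 in an α ring chaperone, stood at 23.1, 15.004, 16.9 and 19.7 CPM in control and 27.5, 25.7, 25.1 and 25.02 CPM in PAN, without overlap. Psmg2 stood at 12.8, 8.69, 11.0 and 13.2 CPM in control and 14.1, 12.7, 12.3 and 13.6 CPM in PAN, and the groups overlapped. Psmg4, the partner of Psmg3, stood at 10.2, 5.49, 6.48 and 9.01 CPM in control and 11.3, 11.4, 9.71 and 10.7 CPM in PAN, and the groups overlapped. The CPM differences were 0.46 for Psmg1, 0.20 for Psmg2 and 0.45 for Psmg4, so that Psmg1, which was called, and Psmg4, which was not, differed by nearly the same amount. No test was made of a difference between partners.

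Of the cap chaperones 1 of 3 was called in CPM and 0 of 3 after median-ratio scaling. Psmd10, also known as gankyrin, stood at 9.95, 10.0, 10.2 and 11.7 CPM in control and 15.9, 18.3, 13.6 and 13.6 CPM in PAN, without overlap. Its difference was 0.51 (SE 0.127, limma adjusted p = 0.0143). The call was lost without control replicate 3 (adjusted p = 0.0512) or PAN replicate 2 (0.0544), and after median-ratio scaling the difference was 0.23 with adjusted p = 0.26. Psmd5 stood at 32.5, 23.2, 25.9 and 30.7 CPM in control and 33.8, 33.0, 29.0 and 33.2 CPM in PAN. Psmd9 stood at 28.7, 22.7, 27.5 and 31.7 CPM in control and 30.2, 35.0, 29.6 and 30.9 CPM in PAN. Both overlapped and were not called, and their differences, 0.20 and 0.19 in CPM, were −0.09 and −0.11 after median-ratio scaling.

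Among the activators, Psme2 was called in CPM and Psme3 and Psme4 were not, and 0 of 3 were called after median-ratio scaling. Psme2, a subunit of the interferon-inducible 11S activator, stood at 48.4, 37.5, 36.0 and 63.8 CPM in control and 87.7, 69.2, 68.0 and 59.6 CPM in PAN. Control replicate 4 overlapped the PAN range. Psme3, which encodes the nuclear 11S activator, stood at 43.0, 26.8, 33.5 and 34.5 CPM in control and 40.3, 37.8, 40.8 and 42.6 CPM in PAN. Psme4, which encodes the activator PA200, stood at 109, 86.4, 138 and 128 CPM in control and 146, 112, 138 and 123 CPM in PAN. For Psme3 and Psme4 the groups overlapped. Psmf1, the core inhibitor also known as PI31, stood at 31.3, 21.2, 22.04 and 26.9 CPM in control and 31.2, 31.9, 30.3 and 28.8 CPM in PAN, with overlap and no call.

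Psmc3ip, a recombination cofactor that is not part of the proteasome, was called with the subunits. It stood at 5.82, 4.78, 4.78 and 5.72 CPM in control and 7.71, 7.26, 8.63 and 8.47 CPM in PAN, without overlap. The difference was 0.52 (SE 0.14, limma adjusted p = 0.0191), and 0.26 with adjusted p = 0.18 after median-ratio scaling. The call was lost without control replicate 2 (adjusted p = 0.0655) or control replicate 3 (0.0712). Psme3ip1 was not called.

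Counted by overlap, every PAN rat was above every control rat for 30 of the 44 genes in CPM (68.2%; 22.4% of all genes) and for 14 after median-ratio scaling (31.8%; 10.6% of all genes). Of the 14 genes, 10 belong to the 26S set (Psma2, Psma4, Psmb1, Psmb2, Psmb3, Psmc1, Psmc4, Psmd3, Psmd8 and Psmd14), and the others are Psma3l, Psmg1, Psmg3 and Psmc3ip. No member had every PAN rat below every control rat on either scale (background 0.87% and 5.24%).

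The balance of the subunits within a rat does not depend on how libraries are scaled. Each gene was expressed as its log2 CPM minus the median of the 26S set in the same rat. From control to PAN these relative levels of the 30 standard subunits moved by −0.19 to 0.17, and 24 of 30 moved by less than 0.1. The most positive were Psmb2 (0.17), Psmc3 (0.14) and Psmb1 (0.11), and the most negative were Psmd11 (−0.19), Psmd12 (−0.10) and Psmd7 (−0.08). The relative level of Psmb2 was −1.21, −1.23, −1.16 and −1.24 in control and −0.99, −0.96, −1.03 and −1.16 in PAN, and control replicate 3 lay just above PAN replicate 4. That of Psmd11, a lid subunit, was 0.05, 0.19, 0.29 and 0.08 in control and −0.11, −0.01, −0.01 and −0.03 in PAN, without overlap.

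Of the 14 genes outside the 26S set, some had larger differences relative to it and others did not. Psmg3 was at −3.02, −3.37, −3.35 and −2.94 in control and −2.52, −2.81, −2.67 and −2.91 in PAN, a difference of 0.45 that ranged from 0.38 to 0.52 when each rat was left out. The differences were 0.24 for Psme2 and 0.21 for Psmc3ip, and they were −0.25 for Psme3ip1, −0.21 for Psme4 and −0.20 for Psmd9. They were −0.19 for Psmd5, −0.02 for Psma3l, 0.09 for Psmg1, 0.11 for Psmg4 and −0.11 for Psmf1, within the range of the standard subunits. The median of the core subunits minus that of the cap subunits was −0.44 ± 0.0889 (SD, n = 4) in the control rats and −0.40 ± 0.0660 in the PAN rats. Under pioglitazone it was −0.40 ± 0.0858 and under GQ-16 −0.28 ± 0.0379. The GQ-16 rats, at −0.34 to −0.25, overlapped the PAN rats, at −0.46 to −0.30, and all lay above the control rats, at −0.57 to −0.35. No test was made of these relative levels.

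**Figure D4:**
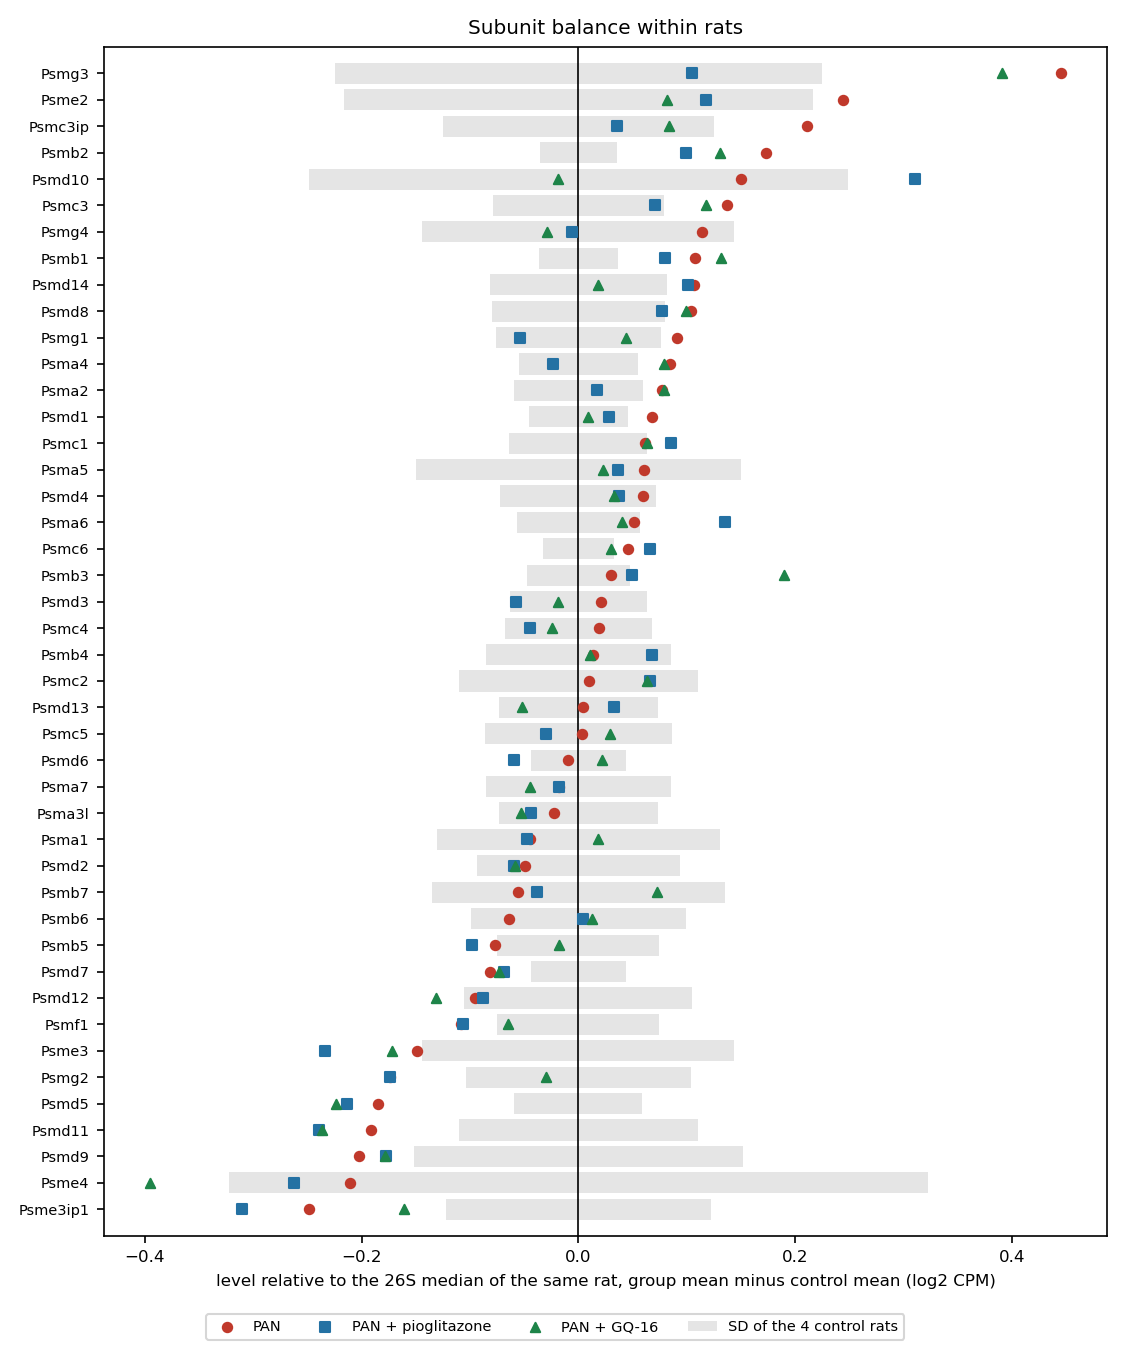
Level of each proteasome gene relative to the 26S median of the same rat, as the mean of the PAN (circles), PAN plus pioglitazone (squares) or PAN plus GQ-16 (triangles) group minus the control mean (x axis, log2 CPM); grey bands are the SD of the 4 control rats. Most standard subunits lie near 0, Psmg3 lies at 0.45 in PAN, and Psmd11, Psmd5 and Psmd9 lie below 0 in all 3 groups.

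At the median, the members varied less between rats of a group than all genes. After median-ratio scaling their pooled within-group SD had a median of 0.0922 on the log2 scale (0.0875 in the 26S set), beside 0.195 for all genes. In CPM the median was 0.174, beside 0.240 for all genes, which were not matched to the members by expression level. The highest SDs after median-ratio scaling belonged to Psme4 (0.227), Psme2 (0.211), Psmg3 (0.199) and Psmd10 (0.181), and in CPM to Psmg3 (0.285), Psme2 (0.271), Psme4 (0.258) and Psmg4 (0.236). Across the 16 rats, after subtracting the median of all genes in each rat, the correlation of a member with the 26S median had a median Pearson r of 0.65, and 30 of 44 members exceeded 0.5. The points share libraries and groups, and the standard subunits are part of the median they are compared with. Among all genes the median r was −0.03 and 1003 of 13222 exceeded 0.5. The lowest members were Psme4 (−0.40), Psmd5 (−0.35), Psme3 (−0.23) and Psmd11 (−0.06). The 5 genes outside the proteasome most like the 26S median were Hypk (r = 0.93), Ufc1 (0.90), AC095947.3 (0.89), LOC108352650 (0.88) and Rps21 (0.87).

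Neither drug changed a proteasome gene detectably relative to PAN. With pioglitazone 0 of 44 genes were called against PAN (limma; 0 of all 13222 genes, a background of 0%), and 0 had an unadjusted p under 0.05 (3.74% of all genes did). After median-ratio scaling 1 member had one (5.57% of all genes). The median difference of the members was −0.10, beside −0.09 for all genes, and both were −0.01 after median-ratio scaling. The smallest p-values belonged to Psmg3, Psmg1 and Psmc3ip. This comparison, like that of GQ-16 with PAN, shares the 4 PAN rats with the comparison of PAN and control. Psmg3 stood at 7.26, 10.9, 8.91 and 10.99 CPM with pioglitazone, where the lowest PAN rat was at 11.04 CPM. The pioglitazone rats overlapped control, and their highest rat was just below the PAN range in CPM and within it after median-ratio scaling (7.66 to 10.6 against 10.5 to 13.2). The difference of Psmg3 from PAN was −0.38 (SE 0.194, limma adjusted p = 0.916). Psmg1 stood at 18.04, 22.7, 23.1 and 25.6 CPM, with a difference of −0.21, and Psmc3ip at 5.35, 7.87, 7.01 and 6.96 CPM, with a difference of −0.22. In CPM the median half-width of the 44 95% intervals was 0.28, and no interval reached below −0.79 or above 0.35. After median-ratio scaling the median half-width was 0.16, and no interval reached below −0.60 or above 0.43.

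With GQ-16, 0 of 44 genes were called against PAN (limma; background 0.0151%, 2 genes, both lower), and 0 had an unadjusted p under 0.05 (8.27% of all genes did). After median-ratio scaling 2 members had one (6.87% of all genes). The median difference was −0.10, beside −0.11 for all genes, but it was 0.03 after median-ratio scaling, so that its direction depends on the scale. The smallest p-values in CPM belonged to Psmd10, Psme4 and Psmd14. Psmd10 stood at 13.04, 11.2, 13.2 and 14.01 CPM with GQ-16, and its difference from PAN was −0.23 (SE 0.127, limma adjusted p = 0.653). Psme4 stood at 110, 77.5, 114 and 137 CPM (difference −0.26) and Psmd14 at 37.9, 29.6, 38.4 and 38.3 CPM (difference −0.17). The low value of both was GQ-16 replicate 2, the GQ-16 library with the most mitochondrial reads. No 95% interval of a member reached below −0.64 or above 0.37 in CPM, or below −0.46 or above 0.36 after median-ratio scaling.

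The 2 drugs were compared with each other in the same model, and 0 of 44 genes were called (limma; background 0%), with 1 gene at an unadjusted p under 0.05 (5.94% of all genes) and 2 after median-ratio scaling (7.26%). The gene in CPM was Psmd10, at 18.3, 17.4, 13.3 and 16.2 CPM with pioglitazone and 11.2 to 14.01 CPM with GQ-16. Its difference, GQ-16 minus pioglitazone, was −0.32 (SE 0.127, 95% interval −0.58 to −0.05, limma adjusted p = 0.772). The differences of Psmg3 and Psmb3 were 0.25 and 0.13. Psmb3, a β subunit, stood at 57.4, 69.9, 61.2 and 76.6 CPM with pioglitazone and 73.7, 67.4, 71.3 and 76.6 CPM with GQ-16. In CPM no interval of a member reached below −0.58 or above 0.66, with a median half-width of 0.28. After median-ratio scaling none reached below −0.55 or above 0.59, with a median half-width of 0.16. The p-values do not show that the drugs act alike. Doses are not given in the labels, so it is not known whether the compounds were matched.

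The catalytic subunits were close to their PAN levels under both drugs. Psmb5 stood at 42.8, 57.4, 52.1 and 50.3 CPM with pioglitazone and 59.6, 46.1, 53.8 and 53.2 CPM with GQ-16. Psmb6 stood at 46.5, 60.8, 48.5 and 54.3 CPM with pioglitazone and 58.5, 46.8, 53.8 and 50.6 CPM with GQ-16. Psmb7 stood at 85.3, 95.5, 88.2 and 98.6 CPM with pioglitazone and 112, 86.1, 107 and 91.5 CPM with GQ-16. All of these ranges overlapped those of PAN. The 26S median was 6.31 ± 0.129 with pioglitazone and 6.31 ± 0.145 with GQ-16 on the log2(CPM + 1) scale, and 6.27 ± 0.0458 and 6.30 ± 0.0906 after median-ratio scaling.

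The remaining regulators gave no call between the drug groups and PAN. Psmd4 stood at 77.5 to 97.9 CPM with pioglitazone and 78.5 to 96.2 CPM with GQ-16, and Psmf1 at 25.1 to 31.3 and 25.4 to 34.6 CPM. Psme2 stood at 51.8, 67.2, 51.0 and 79.5 CPM with pioglitazone and 64.2, 58.1, 54.6 and 61.4 CPM with GQ-16, and Psme3 at 31.1 to 39.6 and 28.3 to 44.4 CPM. Psme4 stood at 107 to 142 CPM with pioglitazone. Psmg2 stood at 11.3 to 15.1 CPM with pioglitazone and 10.7 to 15.6 CPM with GQ-16, and Psmg4 at 7.48 to 10.9 and 7.60 to 10.4 CPM. Psmg1 stood at 21.4 to 25.1 CPM and Psmg3 at 10.0 to 13.99 CPM with GQ-16. Psmd5 stood at 25.9 to 32.4 and 23.8 to 33.3 CPM, and Psmd9 at 27.9 to 32.5 and 27.9 to 32.9 CPM. Every one of these ranges overlapped that of the PAN rats.

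The treated groups were also compared with the control rats, which they share with the PAN comparison. With pioglitazone 1 of 44 genes was called higher, Psmd10 (background 4.7% higher and 0.287% lower), with a difference of 0.59 (SE 0.127, limma adjusted p = 0.0204). All 4 pioglitazone rats were above all 4 control rats for this gene in CPM. After median-ratio scaling the groups overlapped, with 9.69 to 13.6 in control and 12.8 to 19.3 with pioglitazone. After median-ratio scaling 0 of 44 were called (background 2.22% higher and 0.628% lower), Psmd10 standing at 0.39 with adjusted p = 0.113. The CPM call was also lost without control replicate 2 (adjusted p = 0.0763), control replicate 3 (0.0797), pioglitazone replicate 2 (0.0764) or pioglitazone replicate 4 (0.0551). Psma6 (0.45, adjusted p = 0.0561) and Psmd8 (0.39, adjusted p = 0.0582) followed. The count was 14 without control replicate 1 (where 12.2% of all genes were called higher), 5 without control replicate 4 (6.9%) and 2 without pioglitazone replicate 1 (3.46%). It was 0 without control replicate 2 (0.333%), control replicate 3 (0.469%), pioglitazone replicate 2 (0.416%) or pioglitazone replicate 4 (1.19%).

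With GQ-16, 0 of 44 genes were called against control (limma; background 0.151% higher), while 31 had an unadjusted p under 0.05 (23.9% of all genes did) and 43 of 44 differences were above 0. After median-ratio scaling 19 members had an unadjusted p under 0.05 (limma, 24% of all genes did), and 38 of 44 differences were above 0. In CPM the smallest p-values belonged to Psmb3 (0.50, SE 0.135, limma adjusted p = 0.0899), Psmd8 (0.41, adjusted p = 0.0951) and Psmb7 (0.38, adjusted p = 0.102). After median-ratio scaling 0 of 44 were called as well (background 0.666% higher and 0.0756% lower). Without control replicate 1 the CPM count was 13, where 11.6% of all genes were called higher, with Psmb3 at adjusted p = 0.0245. Psmb3 had a median-ratio difference of 0.32 with adjusted p = 0.053, and its median-ratio values of 65.1 to 78.7 with GQ-16 lay above those of control, 54.0 to 61.7. That a gene was called against control in one injured group and not in another does not show that those groups differ.

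Other genes of the ubiquitin-proteasome pathway were followed as a list of partners, 28 of which have a single entry in the table. After PAN 7 of 28 were called higher in CPM and none lower, where 21.7% of all genes were called higher, so this count was near the background. Their median difference was 0.33, beside 0.28 for all genes. After median-ratio scaling 3 were called higher and 1 lower (background 7.12% and 1.51%), with a median of 0.04. Sem1, the small cap subunit also known as Dss1, stood at 50.9, 36.4, 38.5 and 51.9 CPM in control and 71.4, 74.6, 65.0 and 67.3 CPM in PAN, without overlap. Its difference was 0.65 (SE 0.149, limma adjusted p = 0.00884), and 0.35 with adjusted p = 0.0205 after median-ratio scaling. Its call was kept whichever rat was left out, with adjusted p-values up to 0.0417, and was lost in 4 of 12 other settings. Among those 12 the difference went down to 0.31 and the adjusted p up to 0.270, the latter with the mitochondrial share as a covariate.

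Usp14, a deubiquitinase that docks on the cap, stood at 29.9, 24.6, 27.04 and 27.9 CPM in control and 43.2, 36.4, 38.1 and 40.0 CPM in PAN, without overlap. Its difference was 0.51 (SE 0.118, limma adjusted p = 0.00936), and 0.22 with adjusted p = 0.0862 after median-ratio scaling. The call was lost in 8 of 12 other settings. Zfand2a, a stress-induced proteasome-associated zinc finger protein, stood at 20.5, 14.8, 14.7 and 20.5 CPM in control and 39.1, 28.6, 27.3 and 25.4 CPM in PAN, without overlap. Its difference was 0.74 (SE 0.187, limma adjusted p = 0.0151), and 0.45 with adjusted p = 0.0428 after median-ratio scaling. The CPM call of Zfand2a was lost without control replicate 2 (adjusted p = 0.0624), control replicate 3 (0.0624) or PAN replicate 1 (0.06).

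Nfe2l1 had the largest difference of the partners, and its test was added after its values were seen. It stood at 304, 123, 131 and 254 CPM in control and 499, 451, 443 and 414 CPM in PAN, without overlap. The difference was 1.26 (SE 0.326, limma adjusted p = 0.017), or 2.39-fold on that scale, and 0.95 with adjusted p = 0.0271 after median-ratio scaling. The CPM call was lost without control replicate 2 (adjusted p = 0.0755), control replicate 3 (0.0708) or PAN replicate 1 (0.0513). With the mitochondrial share as a covariate the difference was 0.27 (adjusted p = 0.436). Nfe2l1 stood at 239, 331, 365 and 517 CPM with pioglitazone and 311, 210, 426 and 584 CPM with GQ-16, overlapping control and PAN in both.

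Pomp and Adrm1 did not pass the test. Pomp, the chaperone that matures the core, stood at 49.1, 25.8, 33.6 and 41.2 CPM in control and 41.4, 43.7, 43.6 and 45.0 CPM in PAN, with overlap. Adrm1, a ubiquitin receptor of the cap, stood at 105, 70.6, 80.4 and 99.4 CPM in control and 116, 110, 112 and 109 CPM in PAN, without overlap. The other partners called higher in CPM were Nploc4 and Ufd1, cofactors of the segregase p97, and Zfand5. The partner called lower after median-ratio scaling was the ubiquitin ligase Ube3a (−0.33, limma adjusted p = 0.039), whose CPM difference was −0.03. These 4 genes are named after their values were seen. In the other comparisons 0 of 28 partners were called.

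The 3 immunoproteasome subunits, which replace the catalytic subunits of the core in immune cells and under interferon, were not called in any comparison. Psmb8 stood at 28.8, 29.2, 28.1 and 60.02 CPM in control and 64.7, 51.7, 44.9 and 29.8 CPM in PAN. Psmb9 stood at 28.1, 23.8, 23.5 and 51.9 CPM in control and 55.4, 51.2, 37.1 and 27.6 CPM in PAN. Psmb10 stood at 34.6, 25.4, 23.6 and 51.1 CPM in control and 74.7, 51.8, 51.9 and 33.4 CPM in PAN. In all 3 genes control replicate 4 was the highest control rat and PAN replicate 4 the lowest PAN rat, and the groups overlapped. With pioglitazone the genes stood at 32.9 to 50.8, 30.3 to 49.2 and 33.1 to 55.3 CPM, and with GQ-16 at 24.8 to 52.2, 27.5 to 39.1 and 35.5 to 44.8 CPM, respectively.

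Summed levels of marker genes were compared between groups in CPM only and without a test. Control and PAN overlapped for the podocyte, endothelial, proximal tubule, distal nephron and leukocyte lists, and they did not for the mesangial and smooth muscle and the striated muscle lists. The summed level of 5 listed leukocyte genes was 418 to 732 CPM in control and 644 to 1368 in PAN, and it was 664 to 861 under pioglitazone and 465 to 741 under GQ-16. That of 8 podocyte genes was 2143 to 8622 CPM in control and 6744 to 10154 in PAN, and that of 6 proximal tubule genes 3332 to 7416 and 2552 to 8444 CPM. The 5 distal nephron genes summed to 838 to 1516 CPM in control and 424 to 969 in PAN, the 5 listed endothelial genes to 4094 to 5892 and 3517 to 5475, the 5 mesangial and smooth muscle genes to 247 to 615 and 882 to 1378, and 3 striated muscle genes to 4.78 to 25.4 and 369 to 582. In the pioglitazone and GQ-16 rats the mesangial and smooth muscle sum was 825 to 1021 and 491 to 869 CPM, and the striated muscle sum 83.9 to 486 and 71.8 to 504 CPM. No marker gene was at 0 in any library. The part of cell composition in the differences above was not tested, and in bulk tissue fewer cells of a type and less RNA per cell cannot be told apart.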

How the data were processed

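Glomerular RNA of 16 rats (4 groups of 4) was made into stranded poly(A) libraries from 200 ng of RNA with 12 PCR cycles and read as 150 bp pairs, per the labels. The deposited table holds log2 CPM values, and the submitters' processing notes name HISAT2, featureCounts, Subread, limma and Rnor_6.0 without versions. Undoing the log2 CPM form of voom (0.5 read added to each count, 1 to each total) gave whole reads, within 0.05, for 100% of the values, so these are read counts scaled to the total of the listed genes. Reads carry no molecular identifiers.

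Differences on the log2(CPM + 1) scale were tested with limma 3.58.1 (R 4.3.3), with 4 group means over 16 libraries, a variance trend and Benjamini-Hochberg adjustment over 13222 genes, two-sided. This scale understates changes of low genes. Median-ratio scaling used the recovered reads. The scripts were tested on simulated data. Nothing beyond the labels says that the rats were separate animals with independent handling, so p-values set a difference against the spread between these samples. The main fit pools that spread over the 4 groups, although it was unequal. On the log2(CPM + 1) scale the SD of the 26S median was 0.270 in control and 0.0609 in PAN. Libraries with a title number of 25 or higher are PAN replicates 1 to 3, pioglitazone replicate 4 and GQ-16 replicate 4, and the labels do not say what the number means.

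The members, lists and tests were chosen with earlier results of these data known. Genes given by level were the catalytic subunits, Psmd4, Psmd14, the activators, the inhibitor, the chaperones, the immunoproteasome subunits, Pomp, Adrm1 and Nfe2l1. Differences with tests were given for the 8 members with the smallest p in PAN against control, for 3 in each other comparison and for the 3 leading partners called. Levels are not compared between genes, since gene lengths were not used. Rps27a has 2 entries and was left out, and Paaf1 was not analysed here. Motifs were searched in RefSeq promoters (GRCr8), a build other than that of the table. Alternatives were other scalings, pseudocounts, filters, covariates and sets of samples, and leaving out each rat.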

Additional observations from a re-analysis of the deposited data

Results flagged for a closer look

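Within groups of 4 rats, 23 members and 3 summaries of the 26S set were examined, 104 groups in all. In 4 of them 1 rat's gap to its nearest neighbour exceeded the 95% critical value of Dixon's test, where chance gives about 1 in 20, or 5.2. All values are log2(CPM + 1). Psmd14 was 4.94 in GQ-16 replicate 2, where the other rats were at 5.28 to 5.30. Psmd8 was 6.001 in pioglitazone replicate 1, against 6.25 to 6.29. These 2 rats had the highest mitochondrial share of their groups, 30.9% and 18.99%. Psmd5 was 4.91 in PAN replicate 3, against 5.09 to 5.12. Psmd10 was 3.67 in control replicate 4, the one high value of the 4, against 3.45 to 3.48 in the other control rats. Single genes were examined for such gaps on this scale only. After median-ratio scaling Psmd10 stood at 9.69, 13.6, 12.5 and 11.8 in control replicates 1 to 4, where replicate 4 was not the highest. In replicate order, Psmd14 then stood at 38.2, 34.6, 35.0 and 35.5 with GQ-16. Psmd8 stood at 66.5, 75.5, 72.6 and 66.9 with pioglitazone, and Psmd5 at 29.3, 30.5, 26.7 and 31.5 in PAN.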

How the results depend on the processing

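No paired analysis was possible because the labels give no replicate numbers that groups share. The count of members called in PAN against control (27) was 2 after median-ratio scaling and 6 in a fit of only these groups. It was 0 with totals without mitochondrial genes, quantile normalization, voom on the recovered reads, a covariate for title number or for mitochondrial share, median-ratio scaling with the title-number covariate, and without the 3 libraries of highest mitochondrial share; the last 2 settings were chosen after seeing the data. Leaving out each rat gave 2 to 36. The count for pioglitazone against control (1) was 0 after median-ratio scaling, totals without mitochondrial genes, quantile normalization, voom, the mitochondrial covariate, the same 2 added settings, and with only libraries of title number under 25, also added later; leaving out each rat gave 0 to 14. For GQ-16 against control (0) it gave 0 to 13. The 3 comparisons among injured groups stayed at 0 calls in every setting run.

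The 26S median difference between PAN and control (0.39) was 0.0915 after median-ratio scaling, 0.0854 with totals without mitochondrial genes and 0.110 after quantile normalization. For GQ-16 minus PAN (−0.08) it was 0.0450, 0.0441 and 0.0426 in the same order, and leaving out each rat gave −0.118 to −0.011, the latter without GQ-16 replicate 2. For pioglitazone minus PAN (−0.07) leaving out each rat gave −0.119 to −0.016, the latter without pioglitazone replicate 1, and the 3 scalings gave values of 0.01. Apart from scaling, the cause of these differences between settings was not tested. Among the single genes named, no call reversed its direction, 95 values outside the leave-one-out fits lost a call and 236 stayed on their side of the threshold, and within those fits 28 were lost, 8 gained and 180 stayed. The members had at least 75 reads in every library, and no fit at reduced depth was run.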

Other observations

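The 3 immunoproteasome subunits Psmb8, Psmb9 and Psmb10 differed between GQ-16 and PAN by −0.41 to −0.39 in CPM and by −0.29 to −0.26 after median-ratio scaling, beside medians of −0.10 and 0.03 for the 44 proteasome genes and of −0.11 and 0.01 for all genes. None of the 3 was called, and the smallest adjusted p among them was 0.689 (limma, Benjamini-Hochberg). The leukocyte markers summed to 465 to 741 CPM in the GQ-16 rats and to 644 to 1368 CPM in the PAN rats, and their part in these differences was not tested. Between pioglitazone and PAN the 3 subunits differed by −0.24 to −0.14 in CPM and by −0.16 to −0.06 after median-ratio scaling.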
